A study of Homo sapiens with 12 samples.

Results

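COV362 is an ovarian cancer cell line, and THZ1 is a covalent inhibitor of the kinases CDK7, CDK12 and CDK13. The comparison described here is between 250 nM and 50 nM THZ1 in untransduced COV362 cells, both collected after 6 hr, and it asks which genes lost expression only at the step to the higher dose. Its members are the 4 COV362 libraries of these doses (2 each), out of 12 libraries in the series. The 2 COV362 libraries of the DMSO vehicle serve as the starting level, and the 6 libraries of KURAMOCHI, another untransduced ovarian cancer line treated with the same doses for the same time, serve as a separate set in which the chosen genes were looked at again. Every gene row other than the ERCC spike-ins was taken, 23621 in all, and 14251 genes above 1 FPKM in at least 1 library of the series were tested. FPKM is a read density per length of transcript and per amount of sequencing, here rescaled by the authors to the spike-ins, so that a fall in the RNA of a whole cell can be seen. Fewer cells and less RNA per cell cannot be told apart in bulk RNA, although the RNA had been normalized by cell number before the spike-ins were added.

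CDK7 is the kinase of the CDK-activating complex, which is bound to the general factor TFIIH. It phosphorylates the C-terminal tail of RNA polymerase II as transcription starts, whereas CDK12 and CDK13 phosphorylate the tail during elongation. When new transcription stops, an mRNA falls at the pace of its own decay, so short-lived messengers of early response genes, transcription regulators and mitotic genes are known to drop sooner than those of ribosomal proteins or metabolic enzymes.

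The labelled cell type was checked first. Of the epithelial markers, EPCAM averaged 162 FPKM, KRT7 1360 FPKM and KRT8 1130 FPKM in DMSO, but CDH1 averaged 4.45 FPKM. PAX8 and SOX17, transcription factors of the serous lineage, averaged 124 and 117 FPKM, but WT1, another serous marker, averaged 0.653 FPKM. The serous markers MUC16 and FOLR1 averaged 5.71 and 4.4 FPKM, and MSLN 107 FPKM. Of the 8 mesenchymal or stromal markers VIM averaged 1790 FPKM, CDH2 80.3 FPKM, COL1A2 42.2 FPKM and COL1A1 3.17 FPKM, and the others were below 1 FPKM, with DCN and LUM at 0.106 FPKM. Of the endothelial markers CDH5 averaged 7.75 FPKM and KDR 1.05 FPKM, and VWF and PECAM1 averaged 0.6 and 0.338 FPKM. The defining immune markers PTPRC and CD3E averaged 0.13 and 0.106 FPKM. The commonest value of a library, here called the floor, lay between 0.089 and 0.11 FPKM, and 4896 rows sat at it in all 6 COV362 libraries. Replicates correlated across tested genes with r = 0.98 at each dose. The 48 ERCC RNAs above 1 FPKM deviated at 250 nM from their 50 nM mean by a median of 0.0437 and 0.0497 on the log2 scale. The values had already been scaled to the spike-ins, so this cannot show whether the spike-in scale is right.

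The step from 50 nM to 250 nM lowered expression broadly. The tested genes had a median of 5.95 ± 0.465 FPKM at 50 nM (SD, n = 2) and of 3.29 ± 0.038 FPKM at 250 nM, against 13.9 ± 0.684 FPKM in the vehicle. The median log2 fold change from 50 nM to 250 nM was -0.41, between -0.47 and -0.36 over the 4 pairs of a 250 nM and a 50 nM library, after a median of -0.85 from DMSO to 50 nM. limma called 3474 of the 14251 genes (24.4%) lower at 250 nM than at 50 nM and 12 (0.0842%) higher, while 70.5% were already lower (and 0.0772% higher) at 50 nM than in DMSO and 84% were lower (0.105% higher) at 250 nM than in DMSO. Both 250 nM libraries lay below both 50 nM libraries for 10772 genes (75.6%).

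Among the 7694 genes with at least 5 FPKM at 50 nM, the median gene kept 66.1% of its 50 nM level at 250 nM. Losses were deeper in a minority. Of these genes, 2022 (26.3%) kept less than 50%, 241 (3.13%) less than 20% and 43 (0.559%) less than 10%. Exact permutation of 2 libraries against 2 cannot give a two-sided p below 0.333 for a single gene, so the calls rest on the spread that limma pools across genes. The labels do not say whether replicates came from separate cultures, so p-values measure only the spread between these samples. The number called lower was 1692 without 250 nM replicate 1, 1518 without 250 nM replicate 2, 2193 without DMSO replicate 1 and 2197 without DMSO replicate 2.

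The size of the step also depends on the spike-ins. When each library was rescaled to the same median FPKM of tested genes, the median log2 fold change became 0.23, a shift of 0.63, and 720 genes were lower and 459 higher (61.1% of calls lower, against 99.7% with the spike-ins). Under a median-of-ratios rescaling, which sets the typical ratio between libraries to 1, the median was 0.04, with 1111 genes lower and 74 higher. Statements below about falls hold on the spike-in scale. Those about single lists set their share called lower against the 24.4% of all tested genes, or their median against -0.41.

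Genes were then sorted by the step at which they fell. Of the tested genes, 7058 (49.5%) were called lower at the first step only, 2984 (20.9%) at both steps and 3719 (26.1%) at neither. For most genes the first step was the larger: of the 11971 genes lower at 250 nM than in DMSO, the median made 34.6% of its log2 fall in the second step. The second step was shallower than the first for 36.3% of genes and steeper for 4.76%, by a contrast of the steps at an adjusted p under 0.05.

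A group of 174 genes (1.22%) met the criteria set for loss only at the higher step. These late-falling genes were lower at 250 nM than at both 50 nM and DMSO, were neither called nor moved by more than 0.5 on the log2 scale at 50 nM, and had a second step steeper than the first. These values chose the genes, and both steps use the 50 nM libraries, so the levels that follow are a description without a test. The median late-falling gene measured 11.1 FPKM in DMSO, 8.87 FPKM at 50 nM and 2.53 FPKM at 250 nM, a step of -1.23 on the log2 scale, and kept 31.4% of its 50 nM level. The median first step of the group was -0.32, and 57 of the 174 genes stayed within 0.25 of DMSO at 50 nM. Small falls at 50 nM were therefore common in the group. For all 174 genes, both 250 nM libraries lay below the other 4 COV362 libraries. Without the contrast of the steps, the group would hold 241 genes. It held 103 genes without DMSO replicate 1, 109 without 50 nM replicate 2, 114 without 250 nM replicate 1 and 109 without 250 nM replicate 2.

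**Figure D1:**
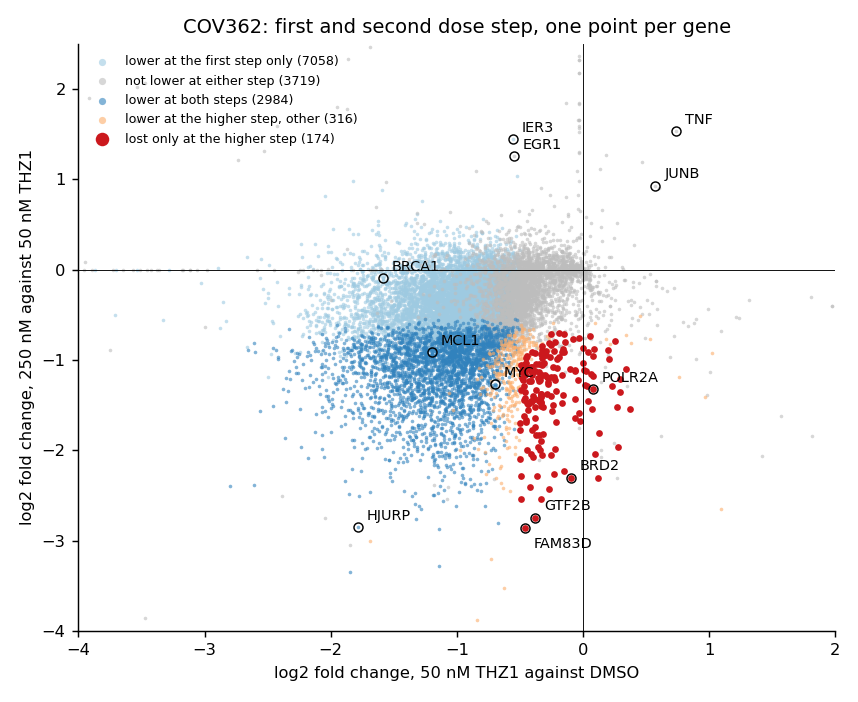
Each point is a tested gene of COV362, with its log2 fold change from DMSO to 50 nM THZ1 on the x axis and from 50 nM to 250 nM on the y axis, colored by the step at which it fell. The 174 late-falling genes sit to the right and below, FAM83D and GTF2B lie near -2.8 on the y axis, and 84 genes fall outside the axes.

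At the edge of the group, MBIP and AMACR moved by -0.497 and -0.496 at 50 nM and were inside the limit of 0.5, and TERF2IP and CDC40 moved by -0.5004 and -0.5025 and were outside. The smallest falls at the second step among the members were those of TRIM36, -0.70, and DMRTA1, -0.71.

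On the log2(FPKM + 1) scale the 2 deepest late falls were those of FAM83D, which recruits casein kinase to the mitotic spindle, and GTF2B, the general factor TFIIB that binds polymerase II to the promoter. FAM83D measured 52.7 and 56.2 FPKM in DMSO, 38.4 and 40.02 FPKM at 50 nM, and 4.21 and 4.89 FPKM at 250 nM. GTF2B measured 29.6 and 30.2 FPKM, then 22.3 and 23.3 FPKM, then 2.72 and 2.38 FPKM. In both genes the 50 nM libraries lay closer to DMSO than to 250 nM, and the step was -2.86 (SE 0.0959) for FAM83D and -2.75 (SE 0.093) for GTF2B on the log2 scale.

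The start site of GTF2B carried a TATA box match, TATAAA, in the stretch where such boxes lie. The 100 bases before the start of the canonical transcript are shown for 4 late-falling genes with this match, because the match was more frequent among late-falling genes than among other genes (values below). They were read from GRCh37, the same assembly as hg19, and run 5′ to 3′ on the strand of the gene, with TATAAA in capitals. HSPA1B, NXF1 and HEXIM1 are described further on.
GTF2B (chr1:89357251-89357350, minus strand): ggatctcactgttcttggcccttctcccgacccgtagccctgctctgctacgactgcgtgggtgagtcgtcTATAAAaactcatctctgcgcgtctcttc
HSPA1B (chr6:31795415-31795514, plus strand): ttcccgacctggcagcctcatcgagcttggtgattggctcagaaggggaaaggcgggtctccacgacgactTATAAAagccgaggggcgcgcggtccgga
NXF1 (chr11:62572913-62573012, minus strand): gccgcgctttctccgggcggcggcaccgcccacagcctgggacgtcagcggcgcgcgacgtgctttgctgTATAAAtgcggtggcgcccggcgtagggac
HEXIM1 (chr17:43225742-43225841, plus strand): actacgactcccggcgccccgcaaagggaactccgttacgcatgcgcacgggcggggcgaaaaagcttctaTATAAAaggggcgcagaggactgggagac

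Of the transcription lists, 2 of 23 pausing and elongation factors, 2 of 21 BET proteins and coactivators, 1 of 12 polymerase II subunits and 0 of 7 TFIIH core genes were late-falling, against 1.22% of all tested genes. BRD2, a BET bromodomain protein that reads acetylated histones, measured 136 and 150 FPKM in DMSO, 130 and 137 FPKM at 50 nM, and 26.8 and 25.7 FPKM at 250 nM. MED26, a Mediator subunit that recruits elongation factors, went from 11.8 and 12.6 FPKM to 8.17 and 8.68 FPKM and then to 0.873 and 0.98 FPKM. POLR2A, the largest subunit of polymerase II, measured 54.1 and 59.98 FPKM in DMSO, 61.4 and 58.9 FPKM at 50 nM, and 22.3 and 24.8 FPKM at 250 nM. The DMSO and 50 nM libraries overlapped for BRD2 and POLR2A, and the 250 nM libraries stood apart for all 3. Their steps were -2.30 (SE 0.0848) for BRD2, -2.29 (SE 0.0983) for MED26 and -1.32 (SE 0.0939) for POLR2A. The limma call of POLR2A was lost under equal-median rescaling (-0.50, adjusted p = 0.0069) and median-of-ratios rescaling (-0.75, adjusted p = 0.00146). CCNT2 and HEXIM1, a cyclin of the elongation kinase P-TEFb and an inhibitor of that kinase, fell by 1.54 and 1.24 at the step with first steps of 0.07 and -0.27.

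NXF1, the mRNA export receptor, measured 39.6 and 43.3 FPKM in DMSO and 54.2 and 53.6 FPKM at 50 nM, then 18.1 and 17.5 FPKM at 250 nM. Both 50 nM libraries lay above both DMSO libraries, and both 250 nM libraries lay below them. NXF1 had the highest first step of the named late-falling genes, 0.37, and its second step was -1.55 (SE 0.0827).

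Of the signalling lists, 2 of 25 immediate early genes, 1 of 21 NF-kB targets and 0 of 26 receptor tyrosine kinase and ERK feedback genes were late-falling, against 1.22% of all tested genes. TOB1, an antiproliferative protein that recruits the deadenylase complex, measured 60.8 and 69.01 FPKM in DMSO, 50.99 and 51.4 FPKM at 50 nM, and 8.39 and 7.53 FPKM at 250 nM. HBEGF, a ligand of the EGF receptor, measured 17.9 and 17.8 FPKM, then 12.2 and 12.6 FPKM, then 2.04 and 2.20 FPKM. SERTAD1, a cofactor of E2F and CDK4, fell from 25.9 and 24.7 FPKM at 50 nM to 3.97 FPKM in each library at 250 nM. In all 3 the 250 nM libraries lay far below the 50 nM libraries, by 6.43-fold for TOB1, 5.84-fold for HBEGF and 6.38-fold for SERTAD1 on the FPKM scale. PELI1, a ubiquitin ligase of innate immune signalling, and ARRDC3, an arrestin-like adaptor, fell by 2.23 and 2.08 at the step. KLF10, an early response gene of TGF-beta, fell by 1.83.

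HSPA1A and HSPA1B encode the inducible HSP70 chaperone and are near-identical, so the counting may have split reads between them and their separate values are uncertain. HSPA1B measured 199 and 212 FPKM in DMSO, 183 and 162 FPKM at 50 nM, and 37.4 and 43.96 FPKM at 250 nM. HSPA1A went from 170 and 153 FPKM at 50 nM to 36.6 and 43.1 FPKM at 250 nM. The steps were -2.06 (SE 0.108) and -1.99 (SE 0.107).

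The remaining named members with the largest falls were RNF139, a ubiquitin ligase of the endoplasmic reticulum (-2.54), the glycosyltransferase gene B3GNT2 (-2.42), FASTKD5, which acts on mitochondrial RNA (-2.31), the actin-binding ENC1 (-2.28) and FAM46B (-2.26). FAM46B fell from 5.57 and 5.81 FPKM at 50 nM to 0.352 and 0.446 FPKM at 250 nM, 14.3-fold on the FPKM scale, where it and MED26 (9.1-fold) fell further than FAM83D (8.62-fold) and GTF2B (8.94-fold). FASTKD5 was no lower at 50 nM (8.14 and 10.4 FPKM) than in DMSO (7.90 and 8.93 FPKM), and measured 1.28 and 0.865 FPKM at 250 nM. Of the 174 genes, 132 had at least 5 FPKM at 50 nM, and 5 were rows of genes that do not code for protein, MIR5047, LINC00662, MIR100HG, SDHAP1 and MIR22HG. Of the whole group, the step ranged from -2.86 to -0.70, and the level kept from 7.01% to 60.2%.

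**Figure D2:**
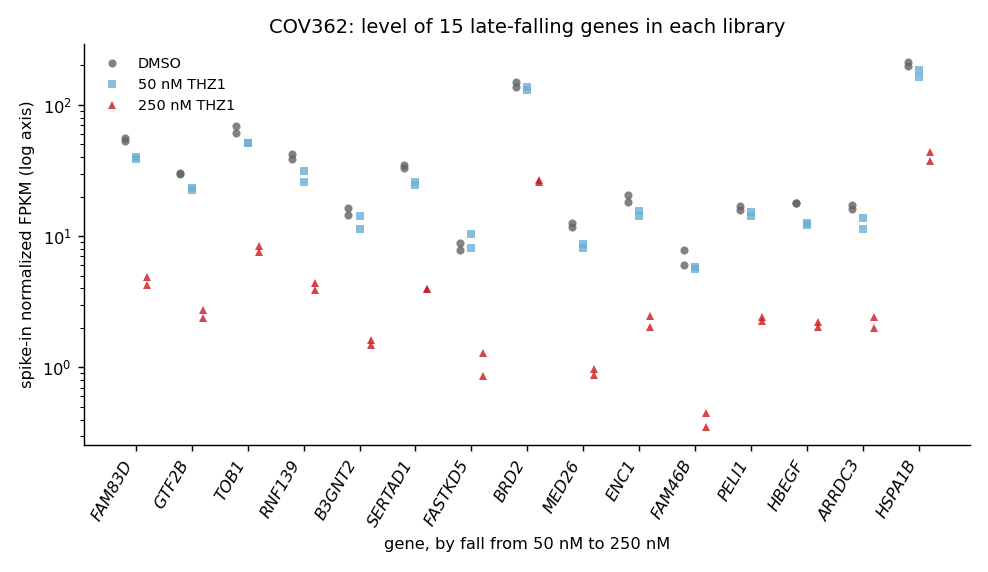
Spike-in normalized FPKM on a log axis in each of the 6 COV362 libraries, for the 15 late-falling genes of at least 5 FPKM at 50 nM with the largest fall, in order of the fall. In each gene the red triangles of 250 nM lie below the grey circles of DMSO and the blue squares of 50 nM, which lie nearer to each other than to the triangles.

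Every member had a step of -0.70 or lower, beyond the shifts of the median of 0.63 and 0.45 under the 2 rescalings. The choice of the genes thus largely fixed the signs below, which are no check of the falls. The definition of the group did not carry over. Under equal-median rescaling 173 of the 174 genes still had a negative second step and 57 were still called lower, and under the median-of-ratios rescaling 174 and 81. Their median first step became 0.77 and 0.55 under these scalings, against 0.13 and -0.03 for all tested genes, and 0 and 16 of the 174 still met every criterion of the group. Of the 15 genes with the largest falls, HSPA1B lost its call under equal-median rescaling, and the others kept it under every alternative, each library left out included.

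KURAMOCHI was not used to choose these genes and gives an independent look at them. In KURAMOCHI, 144 of the 174 genes (82.8%) were called lower at 250 nM than at 50 nM, against 36% of all tested genes, and 173 had a negative step, with FAM25C as the exception. FAM25C lay at 0.105 to 0.110 FPKM in the KURAMOCHI 50 nM libraries and at 0.0783 and 0.468 FPKM at 250 nM. The median KURAMOCHI step was -1.48 for the late-falling genes and -0.62 for all tested genes. Genes that fell at both steps in COV362 had the same share of KURAMOCHI calls, 82.8% with a median of -1.40, so a deep second step in KURAMOCHI was not particular to the late-falling genes.

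The first step in KURAMOCHI was then compared. At 50 nM, 107 of the 174 late-falling genes (61.5%) had a KURAMOCHI mean above DMSO, against 9.88% of all tested genes. This share was 6.23% for the genes that fell at both steps in COV362, 19.7% for those lower at neither, and 36.7% for the 316 other genes that fell at the higher step without meeting the late-falling criteria. The median KURAMOCHI first step was 0.11 for the late-falling genes and -0.40 for all. None of the 174 was called lower at 50 nM in KURAMOCHI (background 11.3%), and 3 were called higher (background 0.0842%), namely NXF1, SUV420H1 and POLR2A. Of the 316 other genes that fell at the higher step 0.316% were called lower there, and of those lower at neither step 3.2%. A lack of such calls was therefore not particular to the late-falling genes. At an unadjusted limma p under 0.05, 19 of the 174 (10.9%) were lower at 50 nM in KURAMOCHI, against 61% of all tested genes.

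NXF1 measured 55.3 and 49.3 FPKM in KURAMOCHI DMSO, 111 and 104 FPKM at 50 nM, and 50.8 and 49.5 FPKM at 250 nM. POLR2A measured 133 and 118 FPKM, then 223 and 215 FPKM, then 61.8 and 70.2 FPKM. SUV420H1, a histone methyltransferase gene, measured 35.8 and 32.0 FPKM, then 59.2 and 55.4 FPKM, then 19.5 and 19.3 FPKM. In all 3 the KURAMOCHI 50 nM libraries stood above the other 4 libraries. The tables of the lines were normalized separately, and no difference between the lines was tested. The same definition applied to KURAMOCHI gave 2483 genes (17.4%), of which 118 were in both groups, which is 67.8% of the COV362 group and 4.75% of the KURAMOCHI group.

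**Figure D3:**
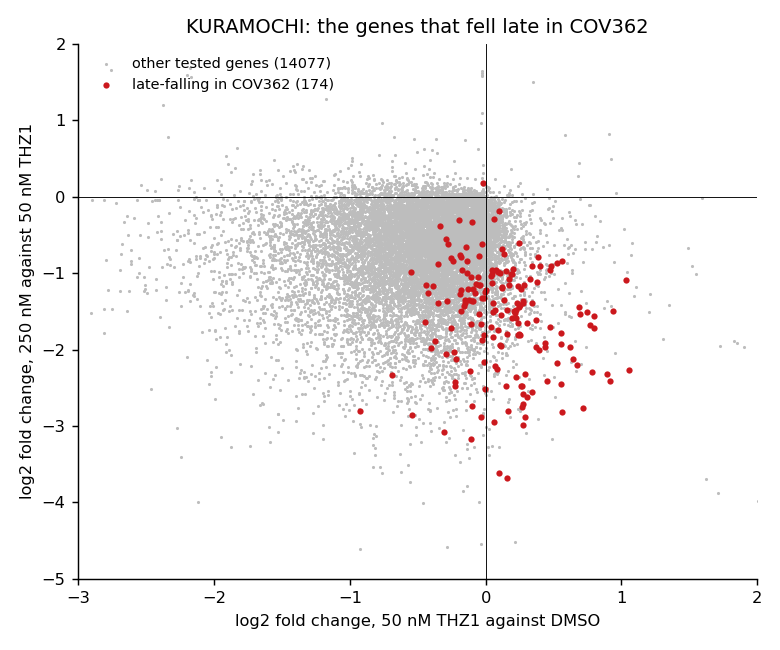
Each point is a tested gene in KURAMOCHI, with its log2 fold change from DMSO to 50 nM THZ1 on the x axis and from 50 nM to 250 nM on the y axis. The 174 genes that fell late in COV362 (red) lie around 0 on the x axis (median 0.11) and at a median of -1.48 on the y axis, and 127 other genes lie outside the axes.

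Features of the genes that the choice had not used were then examined. The late-falling genes had fewer exons than other genes: the canonical transcript of the 173 genes with an annotation had a median of 5 exons, against 9 over all tested genes, and 32.9% had at most 3 exons, against 14.8%. Among protein-coding genes with at least 5 FPKM in DMSO these shares were 29.9% and 11.5%. The share of such genes that was late-falling was 3.01% for 1 exon (5 of 166) and 3.81% for 2 to 3 exons (36 of 946), and went down to 0.661% for 11 to 20 exons (19 of 2873) and 0.628% above 20 exons (8 of 1273). Only 5 genes fill the first of these shares. The median length of the gene in the genome was 31200 bases, against 32100 bases over all tested genes, and 13.3% of the late-falling genes were over 100 kb, against 19.5%. The late-falling share of protein-coding genes of at least 5 FPKM in DMSO showed no steady trend with length, at 1.3% under 5 kb, 1.06% at 5 to 20 kb, 2.07% at 20 to 50 kb, 1.49% at 50 to 100 kb and 0.91% over 100 kb.

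The TATAAA match was likewise more frequent. Starting 40 to 20 bases before the start site, on the strand of the gene, it was found for 14 of 173 late-falling genes (8.09%) and for 291 of the 13460 annotated tested genes (2.16%). The share was 1.73% for genes that fell at both steps, 1.19% for those that fell at the first step only, and 4.27% for those called lower at neither. The 14 genes included GTF2B, HSPA1B, HSPA1A, KITLG, ZC3HAV1, ID4, NXF1, HEXIM1, GPER, ADM, FAM46A, FAM25C and CXCR4. In the sequences printed above the match began 30 bases before the start of NXF1 and 29 before those of GTF2B, HSPA1B and HEXIM1. HSPA1A and HSPA1B are copies of one another, so these 14 are not all independent. In a search of the whole 250 bases before the start, on both strands, TATAAA was found for 11% of the late-falling genes and 5.4% of all.

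The same search was made for 7 other motifs, none of which contains another. CCAAT was found for 43.4% of the late-falling genes and 34.3% of all, GGGCGG, the core of the GC box, for 79.8% and 70.9%, and GAANNTTC, a unit of the heat shock element, for 5.78% and 3.97%. TGACGTCA, the cAMP response element, was found for 1.16% and 2.97%, and CACGTG, the E-box, for 7.51% and 9%. TGAGTCA, the AP-1 motif, was found for 2.89% and 2.38%, and the canonical kB motif for 0.578% and 0.193%. A match is a description of the letters in the window and not a site of binding.

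**Figure D4:**
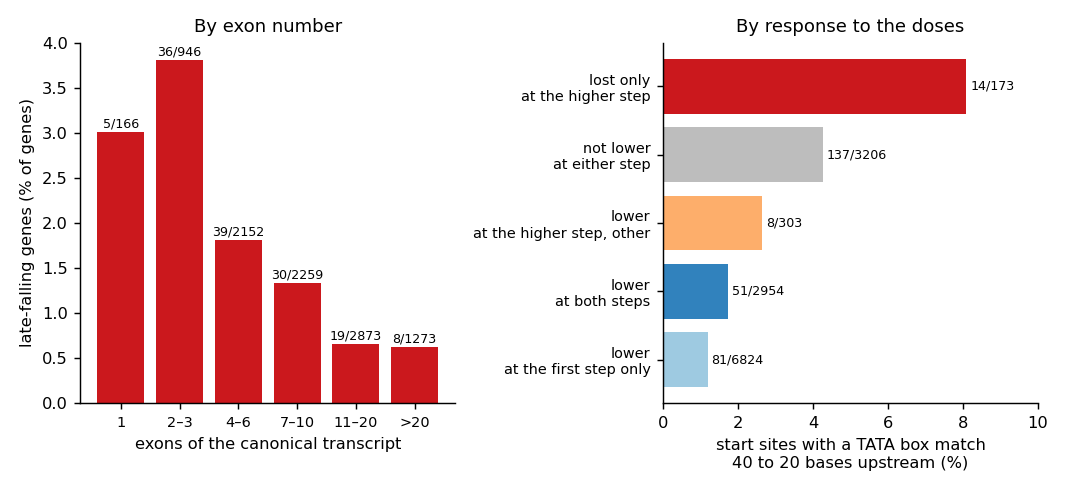
Left, the share of protein-coding genes of at least 5 FPKM in DMSO that fell late in COV362, by the number of exons of the canonical transcript, and right, the share of start sites with a TATA box match 40 to 20 bases upstream, by the step at which the gene fell, with the counts beside each bar. The late-falling share is highest at 2 to 3 exons (3.81%), and the TATA share is highest for the late-falling genes (8.09%).

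Some genes crossed below 1 FPKM only at 250 nM, whether or not they had fallen before. Of the 23621 rows, 877 (3.71%) were above 1 FPKM in all 4 DMSO and 50 nM libraries and below 1 FPKM in both 250 nM libraries, which is 7.7% of the 11387 genes above 1 FPKM in those 4 libraries. Most started low, with a median of 1.74 FPKM at 50 nM, and 20 had at least 5 FPKM in all 4. Of the 877, limma called 461 lower at the step (52.6%, against 24.4% of tested genes) and 389 at both steps (44.4%, against 20.9%), and 27 were late-falling genes (3.08%, against 1.22%). The choice of the 877 fixes a fall at this step, so these shares are a description of the group. The group included 124 zinc finger genes named ZNF and a number (14.1%, against 2.34% of the 11387). The 11387 were not matched to the group in starting level, and a link of this share to the level was not tested. Of those with an annotation, 97.1% were protein-coding, against 96.9%. The count depends on the spike-in scale: equal-median rescaling left 162 and median-of-ratios rescaling 316.

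Among the highest of these, EFNB2, an ephrin ligand, measured 8.50 and 9.75 FPKM at 50 nM and 0.777 and 0.849 FPKM at 250 nM. DDX20, an RNA helicase of the SMN complex, measured 6.40 and 8.90 FPKM and then 0.754 and 0.836 FPKM. CLP1, a kinase of RNA 3′ end processing, measured 7.22 and 8.05 FPKM and then 0.887 and 0.921 FPKM. These 3 had already fallen at 50 nM from 23.03 and 25.9, 22.96 and 24.4, and 15.9 and 17.9 FPKM in DMSO, and are examples of loss at both steps. RASSF9 fell from 7.26 and 8.05 FPKM to 0.752 and 0.490 FPKM and URGCP from 8.26 and 8.32 FPKM to 0.885 and 0.933 FPKM. The snoRNA rows SNORD79 and SNORD15B went from 1714 and 809 FPKM and from 10.4 and 20.5 FPKM at 50 nM to between 0.0569 and 0.0651 FPKM at 250 nM, which is under the floor of those libraries, so no fold is given.

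The study's central genes MYC and MCL1 fell at both steps. MYC, the transcription factor, measured 165 and 180 FPKM in DMSO, 105 and 107 FPKM at 50 nM, and 43.6 and 43.5 FPKM at 250 nM, a second step of -1.26 (SE 0.0796, adjusted p = 5.02e-05). MCL1, an antiapoptotic BCL2 relative, measured 171 and 196 FPKM, then 72.4 and 86.3 FPKM, then 43.2 and 40.1 FPKM, a second step of -0.91 (SE 0.116, adjusted p = 0.000576). For both genes the 3 groups did not overlap. The MCL1 call was lost when any library other than 50 nM replicate 1 was left out, with adjusted p-values from 0.00106 to 0.00328, and MYC kept its call with each library left out. Under equal-median rescaling the MYC step was -0.43 (adjusted p = 0.00229) and the MCL1 step -0.07 (adjusted p = 0.337). PVT1, the long noncoding RNA beside MYC, measured 15.3 and 15.4 FPKM in DMSO, 9.79 and 9.23 FPKM at 50 nM, and 7.84 and 8.27 FPKM at 250 nM. It was called lower at the first step (-0.64, adjusted p = 0.000368) and not at the second (-0.21, adjusted p = 0.0747).

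The mRNAs of the kinases that THZ1 binds also fell at the second step. CDK7 went from 17.6 and 20.7 FPKM at 50 nM to 7.18 and 6.45 FPKM at 250 nM (-1.36), CDK12 from 7.98 and 9.23 FPKM to 3.17 and 3.07 FPKM (-1.22), and CDK13 from 8.04 and 9.80 FPKM to 1.998 and 2.04 FPKM (-1.71). All 3 were called, as was CCNK, the cyclin of CDK12 and CDK13 (-1.14). Of the 6 kinases and partners in the list, 4 were thus called (66.7%, against 24.4% of all tested genes). None of the 6 fell late, near the 1.22% of all tested genes. Under equal-median rescaling 1 of the 6 was called, and CDK7 (-0.60, adjusted p = 0.00132) and CDK12 (-0.55, adjusted p = 0.00142) lost their limma calls. These 2 calls were also lost with the replicate number as a block. CCNH, the cyclin of CDK7, had a step of -0.74 and an adjusted p of 0.00103, just past the threshold. Of the 7 TFIIH core genes, 0 were called lower at the second step (24.4% of all tested genes) and 7 at the first (70.5% of all), with median steps of -0.44 and -0.99. By the unadjusted limma p under 0.05, 7 of the 7 were lower at the second step, against 63.9% of all.

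BRCA1 and BRCA2, repair genes of homologous recombination, lost most of their level at the first step. BRCA1 measured 21.3 and 23.7 FPKM in DMSO, 6.36 and 7.25 FPKM at 50 nM, and 6.36 and 6.26 FPKM at 250 nM, so the 50 nM and 250 nM libraries overlapped (-0.09, adjusted p = 0.48). BRCA2 measured 0.86 and 1.41 FPKM at 50 nM and 0.609 and 0.456 FPKM at 250 nM (-0.47, adjusted p = 0.024). Of the 32 homologous recombination and Fanconi genes, 30 were called lower at the first step (70.5% of all tested genes) and 8 (25%) at the second, near the 24.4% of all. PALB2, the partner of BRCA2, fell by 1.56 and BARD1, the partner of BRCA1, by 1.10 at the second step. FANCA was the late-falling gene of the list, with 20.7 and 22.6 FPKM at 50 nM against 19.7 and 21.2 FPKM in DMSO, and 8.997 and 8.98 FPKM at 250 nM.

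The gene lists differed in the share of their genes called lower at the second step. The share called lower was 65.2% for 23 pausing and elongation factors and 61.1% for 54 G2/M phase genes, against 24.4% of all tested genes. It was 0 of 78 for cytoplasmic ribosomal proteins (of which 10 were called lower at the first step and 23 were lower at the second by the unadjusted limma p under 0.05, against 63.9% of all genes), 5.88% for 17 glycolytic enzymes and 10% for 20 proteasome subunits. Under equal-median rescaling 4 of the 23 pausing and elongation factors and 10 of the 54 G2/M genes were called lower, against 5.05% of all genes. Under the median-of-ratios rescaling these counts were 8 and 15, against 7.8% of all genes. Of the 22 lists with tested genes, 20 had a median step below the median of all genes, and 17 under each rescaling. The polymerase II list (-0.408) lay next to the median of all genes (-0.406), and the proteasome list (-0.491) lay below it despite its few calls. On the spike-in scale the exceptions were the ribosomal proteins (-0.24) and glycolytic enzymes (-0.25). All 22 medians were negative on the spike-in scale, but 12 were negative under equal-median rescaling and 17 under the median-of-ratios rescaling, where the medians of ribosomal proteins became 0.61 and 0.35.

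Among the pausing and elongation factors (15 of 23 lower, against 24.4% of all tested genes, median -0.91), CCNT1, the main cyclin of P-TEFb, went from 12.8 and 15.8 FPKM at 50 nM to 1.85 and 1.72 FPKM at 250 nM. LEO1, a subunit of the PAF complex, fell from 18.2 and 19.5 FPKM to 3.24 and 3.36 FPKM. MEPCE, which caps the 7SK RNA, fell from 24.6 and 23.99 FPKM to 5.73 and 6.55 FPKM. The 250 nM libraries stood well below in each, while NELFB, a pausing factor, remained at 28.7 and 32.4 FPKM against 36.2 and 36.0 FPKM (-0.24, adjusted p = 0.056). Of the 21 BET proteins and coactivators 9 were lower (42.9%), led by BRD2 and MED26, and the acetyltransferase gene CREBBP fell by 1.45. Of the 12 polymerase II subunits 3 were lower (25%, near the share of all), POLR2D, POLR2A and POLR2B, the last by 0.88. The POLR2B call was lost when any library other than 50 nM replicate 1 was left out (adjusted p of 0.00119 to 0.00308).

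Of the cell cycle lists, 31 of 54 G2/M phase genes, 20 of 43 S phase genes and 10 of 21 G1 cyclin, E2F and RB genes fell at both steps, against 20.9% of all tested genes. The G2/M list had 51 of its 54 genes lower at the first step and 33 at the second (median -0.87), against 70.5% and 24.4% of all, and 0 were late-falling, against 1.22% of all. HJURP, the chaperone of centromeric histone, measured 91.03 and 95.05 FPKM in DMSO, 24.4 and 28.3 FPKM at 50 nM, and 2.99 and 2.58 FPKM at 250 nM, a second step of -2.85. The mitotic kinases AURKA and TTK fell by 2.51 and 2.11. CDCA3 stayed at 34.5 FPKM in both 250 nM libraries against 38.3 and 37.97 FPKM at 50 nM. Of the 43 S phase genes 21 were lower at the second step (48.8%), with DTL, a ubiquitin ligase adaptor of replication, at -2.06. Of the 21 G1 cyclin, E2F and RB genes 10 were lower (47.6%), with E2F3 at -2.01 and CCNE1 at -1.89. Of the 17 p53 targets 6 were lower (35.3%), with SESN2 at -1.56, and the late-falling PMAIP1 at -1.28, a call lost without 250 nM replicate 1 or replicate 2 (adjusted p of 0.00103 and 0.00157).

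The shares of lineage, signalling and stress lists called lower compare with 24.4% of all tested genes. Of the 13 serous lineage transcription factors 7 were lower (53.8%), and KLF5 went from 58.8 and 61.8 FPKM at 50 nM to 7.91 and 7.63 FPKM at 250 nM (-2.80). Of the 15 TGF-beta, BMP and YAP response genes 9 were lower (60%), with AMOTL2 at -2.76 and ANKRD1 at -2.38, while ID1 stayed at 107 and 127 FPKM against 142 and 138 FPKM. Of the 18 heat shock and chaperone genes 11 were lower (61.1%), with DNAJB1 at -2.46. HSF1, the heat shock transcription factor, had a step of -0.18 (adjusted p = 0.189). Of the 20 BCL2 family and apoptosis genes 11 were lower (55%), and 0 were called lower under either rescaling, against 5.05% and 7.8% of all tested genes. BCL2L11, which encodes the death promoter BIM, fell late, from 14.9 and 13.4 FPKM at 50 nM to 4.45 and 3.62 FPKM. BAX stayed at 23.4 and 26.4 FPKM against 23.7 and 29.0 FPKM. Of the 26 receptor tyrosine kinase and ERK feedback genes 11 were lower (42.3%), led by DUSP5 (-1.99). Of the 11 genes of MYC, MAX and partners 3 were lower (27.3%), near the 24.4% of all tested genes, and 0 and 1 were lower under the rescalings, also near the shares of all. Of these, MAX lost its call without 250 nM replicate 2 (adjusted p = 0.00109), and MXD1 without any library other than 50 nM replicate 1 (0.00164 to 0.00613). Of the 425 tested ZNF genes 136 were lower (32%), with ZNF622 at -2.37.

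The ribosomal, glycolytic and proteasome lists had the few calls given above. RPL28, of the ribosomal proteins, measured 353 and 340 FPKM at 50 nM and 322 and 320 FPKM at 250 nM. RPL21 had a positive step because 50 nM replicate 2 stood at 0.121 FPKM, near the floor, with 213 FPKM in the other 50 nM library, and it was not called (adjusted p = 0.211). Of the glycolytic enzymes LDHA was called lower, from 485 and 529 FPKM to 279 and 265 FPKM (-0.90), a call lost without 50 nM replicate 2 or either 250 nM library (adjusted p of 0.0023 to 0.00346). Of the proteasome subunits PSMC6 and PSMC2 were called lower, by 0.94 and 0.75. The PSMC6 call was lost without 50 nM replicate 2 or either 250 nM library (adjusted p of 0.00142 to 0.00298), and the PSMC2 call without any library other than 50 nM replicate 1 (0.00132 to 0.00387).

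**Figure D5:**
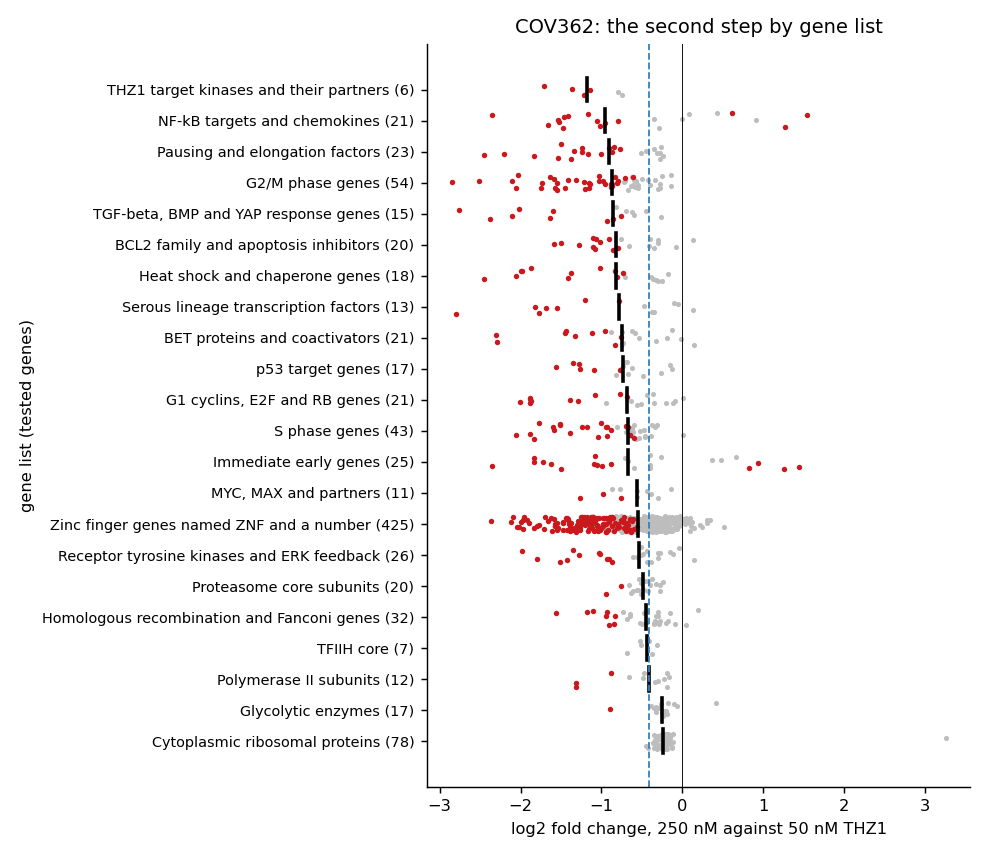
The log2 fold change from 50 nM to 250 nM THZ1 in COV362 (x axis) of each tested gene of 22 gene lists (rows, with the number of genes), where red points are called genes, black bars are list medians and the dashed line is the median of all tested genes, -0.41. The kinase, NF-kB and elongation lists have medians below -0.90, and the ribosomal and glycolytic lists lie to the right of the line.

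The 12 genes called higher at 250 nM than at 50 nM included 7 from 2 lists, which also held many falling genes. Of the 25 tested immediate early genes 4 rose (IER3, EGR1, JUNB and ZFP36) and 11 fell, and of the 21 NF-kB targets and chemokines 3 rose (TNF, CXCL2 and LIF) and 12 fell. Of all tested genes 0.0842% rose and 24.4% fell. Under equal-median rescaling 7 immediate early genes rose and 7 fell, and 6 NF-kB targets and chemokines rose and 6 fell, against 459 and 720 of all genes. Under the median-of-ratios rescaling 6 immediate early genes rose and 7 fell, and 3 NF-kB targets and chemokines rose and 6 fell, against 74 and 1111 of all genes. IER3, an early response gene of stress and NF-kB signalling, measured 160 and 168 FPKM in DMSO, 114 and 108 FPKM at 50 nM, and 299 and 311 FPKM at 250 nM. TNF, the cytokine, measured 2.69 and 2.09 FPKM, then 3.85 and 5.56 FPKM, then 15.8 and 14.97 FPKM. For both genes the 250 nM libraries lay above the other 4, with steps of 1.45 (SE 0.079) and 1.54 (SE 0.165). IER3 kept its call with each library left out, and TNF lost it without 250 nM replicate 1 (adjusted p = 0.00136) or replicate 2 (adjusted p = 0.0012).

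EGR1, an early response transcription factor, measured 7.40 and 6.96 FPKM, then 4.89 and 4.32 FPKM, then 12.1 and 12.6 FPKM. CXCL2, a chemokine, measured 5.45 and 5.44 FPKM at 50 nM and 15.3 and 13.8 FPKM at 250 nM. JUNB, an AP-1 subunit, measured 76.2 and 82.1 FPKM, then 124 and 112 FPKM, then 205 and 250 FPKM, and so was higher in each group than in the one before. ZFP36, which directs decay of AU-rich mRNAs such as that of TNF, rose by 0.82, and LIF, a cytokine of the IL-6 family, by 0.61. In the same lists TNFAIP3, an inhibitor of NF-kB signalling, fell from 22.96 and 26.1 FPKM to 3.99 and 3.98 FPKM, and BTG1 from 12.8 and 14.4 FPKM to 1.82 and 1.87 FPKM. IL6 measured 1.31 and 1.22 FPKM at 50 nM and 1.02 and 1.54 FPKM at 250 nM, so its groups overlapped. EGR1 kept its call with each library left out. The CXCL2 call was lost without 250 nM replicate 1 or replicate 2 (adjusted p of 0.00295 and 0.00197), and the LIF call without any one library (0.00203 to 0.00662). The ZFP36 call was lost without any library other than 50 nM replicate 1 (adjusted p of 0.00204 to 0.00611), and the JUNB call without either DMSO library, 50 nM replicate 2 or 250 nM replicate 2 (0.00125 to 0.00211).

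The other called rises were those of MIR4644, MSH5-SAPCD1, C1orf186, QRFP and GAS5-AS1. The microRNA row MIR4644 stood at 255 and 558 FPKM at 250 nM and at 0.106 to 0.160 FPKM in the other 4 COV362 libraries, and no fold is given against values near the floor. Within COV362 this row exceeded 1 FPKM only in the 250 nM libraries where it was high, so its call is no support for a rise. MSH5-SAPCD1, QRFP and GAS5-AS1 were below 1 FPKM in both 50 nM libraries. The C1orf186 call was lost without either DMSO or either 250 nM library (adjusted p of 0.00138 to 0.00262), the QRFP call without either 250 nM library (0.00193 and 0.00296), and the GAS5-AS1 call without any 50 nM or 250 nM library (0.00109 to 0.00409). By the unadjusted limma p under 0.05, 228 genes were higher at 250 nM, and 1779 had a higher mean. The number called higher was 22 without 50 nM replicate 1, 26 without 250 nM replicate 1 and 22 without 250 nM replicate 2.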

How the data were processed

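COV362 cells were treated for 6 hr with DMSO, 50 nM THZ1 or 250 nM THZ1, with 2 libraries each; nothing in the labels says whether the replicates were separate cultures. The authors mixed ERCC RNAs into RNA normalized by cell number, made stranded mRNA libraries, aligned single-end reads with HISAT to hg19, and used Cufflinks and Cuffnorm for FPKM, which they scaled by the spike-ins. For each cell line the authors deposited a table with 1 FPKM value per gene and library. These values are not counts, so library depth is unknown, and edgeR was not used; the number of libraries limits the precision.

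ERCC rows were left out, and the 14251 genes above 1 FPKM in at least 1 of the 12 libraries were tested. Values were transformed as log2(FPKM + 1), where the pseudocount of 1 understates changes of low genes. The 3 COV362 groups were fitted in limma 3.58.1 (R 4.3.3) with eBayes moderation that allowed for a trend of variance with level. Two-sided p-values received Benjamini-Hochberg adjustment over all tested genes, and a call needed both an adjusted p under 0.001 and a change of more than 0.5 in log2. KURAMOCHI libraries, whose table was normalized separately, were fitted in the same way and never tested against COV362. The fit was tested on simulated data.

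Late-falling genes were called lower at 250 nM against both 50 nM and DMSO, lay within 0.5 of DMSO at 50 nM without a call, and had a second step below the first at an adjusted p under 0.05. Genes are named by rule: the 15 late-falling genes of at least 5 FPKM at 50 nM with the largest fall, the 8 highest that fell under 1 FPKM, the 5 largest rises, 9 genes that the study discusses or that bear on THZ1, and for each of 23 gene lists up to 3 called members and the member nearest 0. The members and lists were chosen with earlier results of these data known. Exons and start sites come from GENCODE v44 lifted to GRCh37, matched by symbol. Same-numbered libraries deviated together with a correlation of -0.07 to 0.03, so the numbers were not treated as pairs. Alternatives were another pseudocount, other minimums, 2 rescalings, a replicate block, other thresholds and each library left out. Mitochondrially encoded mRNAs were not analysed here. The promoter sequence of 1 late-falling gene is not reported here.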

Additional observations from a re-analysis of the deposited data

Results flagged for a closer look

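In 4 of the named genes called higher at 250 nM than at 50 nM in COV362, every KURAMOCHI library moved the other way, a difference between the lines that was not tested. TNF had a step of 1.54 in COV362 and of -0.36 in KURAMOCHI, where it measured 14.7 and 17.1 FPKM at 50 nM and 10.7 and 13.8 FPKM at 250 nM. EGR1 had steps of 1.25 and -0.93, with 5.69 and 5.65 FPKM and then 2.03 and 3.02 FPKM in KURAMOCHI. JUNB had steps of 0.93 and -1.46, with 36.0 and 37.5 FPKM and then 11.01 and 14.7 FPKM. ZFP36 had steps of 0.82 and -1.46, with 12.5 and 12.6 FPKM and then 3.22 and 4.71 FPKM. In KURAMOCHI, limma called JUNB (adjusted p = 0.000282) and ZFP36 (adjusted p = 0.000458) lower at this step, but not EGR1 (adjusted p = 0.00295) or TNF (adjusted p = 0.0938). Of the other rises named by the rule, IER3 and CXCL2 had positive KURAMOCHI steps of 0.28 (adjusted p = 0.015) and 0.40 (adjusted p = 0.0883), neither of them called.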

How the results depend on the processing

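The median log2 fold change of -0.41 moved beyond the spread between pairs of libraries with a pseudocount of 0.1 (-0.51), without a minimum FPKM (-0.0798), with a minimum of 10 FPKM (-0.53), and under equal-median (0.23) and median-of-ratios (0.0400) rescaling, which also turned its sign; with libraries left out it ranged from -0.46 to -0.36. The 3474 genes called lower became 2127 without a minimum, 720 and 1111 under the 2 rescalings, 5909 at an adjusted p under 0.05, 2035 beyond a log2 fold change of 1, and 1518 to 3974 with libraries left out. The 12 called higher became 7, 459, 74, 41 and 6 in the same order, and 10 to 26. The 174 late-falling genes became 484 and 737 under the rescalings, which shared 0 and 16 genes with them, 57 with a limit of 0.25 at 50 nM, and 103 to 257 with libraries left out. The 877 genes that fell under 1 FPKM became 162 and 316 under the rescalings, 20 with at least 5 FPKM beforehand, and 877 to 1119 with libraries left out.

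With the replicate number as a block, 1130 genes were lower, 4 higher and 89 late-falling, all 89 among the 174, and the median kept its value; the numbers do not pair the libraries. Of the 87 named genes that were called, 71 kept the call with each library left out, 63 under both rescalings and 62 with the block. Under equal-median rescaling BRCA1 (0.69), ETV4 (0.78) and PFKM (0.77) were called higher, and PSMC2 changed sign (0.0813). Depth is unknown, and with 2 libraries a group no gene can be judged on its own spread.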

Other observations

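Over all protein-coding genes with at least 5 FPKM in DMSO, the share called lower at the step to 250 nM was 42.2% for genes of 1 exon and 47.4% for 2 to 3 exons, against 28.8% for genes above 20 exons, with median steps of -0.64, -0.74 and -0.53. By length in the genome the share was 24% under 5 kb and 37.7% from 50 to 100 kb, with medians of -0.36 and -0.64. Genes were not independent replicates, and no test was made.

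Of the 11 called rises with an annotated start site, JUNB, LIF and TNF (27.3%) had TATAAA 40 to 20 bases upstream, against 2.16% of all annotated tested genes. This share rests on 3 genes, each of which lost its call when single libraries were left out.

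The 2 rows MIR1244-2 and MIR1244-3 together held 35.4% of the summed FPKM of the DMSO libraries, 44.1% at 50 nM and 36.2% at 250 nM. The 3 rows with the largest fall at 50 nM whose second step was near 0, SNORD45C, SNORD104 and SNORD99, stood at 725 to 1370 FPKM in DMSO and at 0.0663 to 0.0805 FPKM in the 4 treated libraries.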
